A study of Mus musculus with 2 samples.

Results

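Complement is a set of plasma proteins, most of them made by hepatocytes, that mark and lyse targets. The genes examined were C3, C4b, C6, C8a, C8b, C9, Cfb, Cfi and Cfd, a fixed list of 9 of the 19059 genes in each of 2 matrices of single-cell RNA-seq (scRNA-Seq) counts from mouse liver. Both matrices held all 9. By the labels and methods, each library came from mice on a C57BL/6/J background, 27 weeks old, fed a high-fat/high-sugar diet (HF/HSD) from 7 weeks of age. The label AEG-1DMAC stands for myeloid cell-specific AEG-1 knockout mice, in which Cre from the Lyz2 (LysM) locus acts on floxed AEG-1 (Mtdh), and AEG-1fl/fl for floxed mice without the deletion. The Mtdh counts given below go against these labels, so a library is named here only by its label. Lyz2-Cre is active in macrophages, neutrophils and other myeloid cells and is not aimed at hepatocytes. How many animals went into each library, and their sex, are not given in the sources used here. There was 1 library per label, so no test between the labels was possible and no p-value is given. Intervals are 95% intervals of the counts and cover counting error only, not the spread between animals.

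Complement can be started by antibody or by sugar patterns (the classical and lectin pathways, which cleave C4, the product of C4b) or by slow activation of C3 itself (the alternative pathway, which needs factor B, Cfb, and factor D, Cfd). All routes meet at C3, whose fragment C3b tags surfaces, and factor I (Cfi) cuts the active fragments of C3 and C4 to stop the chain. The terminal proteins C6, C8 (with the chains C8a and C8b) and C9 then join into the membrane attack complex. In the liver lobule, blood runs from the portal tract to the central vein, and many hepatocyte genes are graded along that axis.

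The genes lie at 7 places in the genome (GENCODE annotation of GRCm38, each a protein-coding gene). C8b (chr4:104766317-104804548, plus strand) and C8a (chr4:104815679-104876398, minus strand) are neighbours that face each other, with 11130 bases between their ends. C6 (chr15:4727175-4814967) and C9 (chr15:6445327-6498751) are on the plus strand of the same chromosome, 1630359 bases apart. C4b (chr17:34728380-34743882) and Cfb (chr17:34856374-34862518) lie in the same region on the minus strand, and C3 (chr17:57203970-57228136, minus strand) farther along that chromosome. Cfi is at chr3:129835884-129875332 and Cfd at chr10:79890853-79892655, both on the plus strand.

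RefSeq promoter windows (GRCm38.p6, 250 bases before to 50 after the start) were matched by symbol for 6 of the 9 genes: C3, C6, C8a, C8b, C9 and Cfd. The windows of the genes that were graded along the lobule are shown 5′ to 3′ on the strand of the gene, because the graded genes went in opposite directions. Capitals mark matches, on either strand, to 7 motifs, namely the TATA box (TATAAA), HNF1 (GTTAAT, one arm of its palindrome), C/EBP (TTGCNNAA), STAT (TTCNNNGAA), TCF/LEF (CTTTGA), NF-kB and the DR1 nuclear receptor site. The pericentral genes come first (C6, chr15:4726960-4727259; Cfd, chr10:79890603-79890902), then the periportal genes (C8a, chr4:104876349-104876648; C8b, chr4:104766067-104766366; C9, chr15:6445096-6445395).
C6: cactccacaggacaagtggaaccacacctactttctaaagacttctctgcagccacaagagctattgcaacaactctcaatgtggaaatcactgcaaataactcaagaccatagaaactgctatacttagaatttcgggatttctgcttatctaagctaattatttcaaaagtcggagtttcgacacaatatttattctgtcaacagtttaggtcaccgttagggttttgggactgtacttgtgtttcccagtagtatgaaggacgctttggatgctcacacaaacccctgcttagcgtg
Cfd: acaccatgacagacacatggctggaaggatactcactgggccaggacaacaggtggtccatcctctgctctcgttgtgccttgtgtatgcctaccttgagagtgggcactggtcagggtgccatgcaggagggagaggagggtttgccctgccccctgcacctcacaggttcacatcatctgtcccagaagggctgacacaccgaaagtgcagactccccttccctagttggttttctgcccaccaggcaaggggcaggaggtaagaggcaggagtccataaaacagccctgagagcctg
C8a: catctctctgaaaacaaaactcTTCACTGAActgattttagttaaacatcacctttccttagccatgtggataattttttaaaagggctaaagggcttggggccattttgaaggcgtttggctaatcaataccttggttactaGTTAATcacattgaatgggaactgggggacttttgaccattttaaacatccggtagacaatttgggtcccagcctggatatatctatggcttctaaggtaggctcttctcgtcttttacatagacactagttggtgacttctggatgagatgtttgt
C8b: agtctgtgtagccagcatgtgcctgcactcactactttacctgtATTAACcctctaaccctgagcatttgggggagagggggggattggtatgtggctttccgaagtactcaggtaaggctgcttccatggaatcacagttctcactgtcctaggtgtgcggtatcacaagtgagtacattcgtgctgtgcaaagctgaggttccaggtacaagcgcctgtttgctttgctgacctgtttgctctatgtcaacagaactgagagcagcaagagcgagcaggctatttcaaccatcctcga
C9: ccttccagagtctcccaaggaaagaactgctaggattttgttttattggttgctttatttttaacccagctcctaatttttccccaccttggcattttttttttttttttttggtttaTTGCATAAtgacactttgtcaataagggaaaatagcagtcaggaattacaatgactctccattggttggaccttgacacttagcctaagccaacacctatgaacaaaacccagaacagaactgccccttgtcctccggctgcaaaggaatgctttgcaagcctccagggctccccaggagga

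The C6 and Cfd windows held no match to any of the 7 motifs. The C8a window held an HNF1 match and a STAT match, C8b an HNF1 match and C9 a C/EBP match. The C3 window, not printed, held a C/EBP match and a match to the TATA box letters. The latter lay 14 to 19 bases after the annotated start, not before it. Among 32851 promoter windows of this length, 7.1% held the HNF1 motif, 8.3% the STAT motif, 10.8% the C/EBP motif and 13.6% the TATA box. The NF-kB motif (1.63% of windows), TCF/LEF (16%) and DR1 (0.0944%) had no match in the 6 windows. No overlap of one match with another occurred. A match is a string of letters in the window and says nothing of binding.

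The libraries held 79589511 and 90440089 counts over 2581 and 3535 cells (labelled AEG-1DMAC first, here and in what follows), of which 2571 and 3508 cells passed the filters. Only 10 cell barcodes occurred in both libraries. Marker panels placed 1183 and 1113 cells in the hepatocyte-like class, whose cells held medians of 29240 and 30661 counts. The other classes were macrophage-like (305 and 732 cells), T and NK cell-like (48 and 105), stellate cell-like (229 and 375), B cell-like (44 and 69), cholangiocyte-like (32 and 100) and endothelial cell-like (271 and 375). Mtdh, the gene the labels say is deleted in myeloid cells, went against the labels: in macrophage-like cells it stood at 119 CPM (counts per 1000000 counts of the class; 396 counts) in the library labelled AEG-1DMAC and at 27.0 CPM (175 counts) in the library labelled AEG-1fl/fl, a log2 ratio of 2.14 (1.88 to 2.41). In hepatocyte-like cells it was 61.9 and 58.1 CPM. Where its probes lie relative to the floxed part is not given in the sources used here. Each direction between libraries below is therefore a difference between 2 libraries as labelled, and genotype, animal and library cannot be told apart.

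In hepatocyte-like cells C6 and C8b were lower and Cfd was higher in the library labelled AEG-1DMAC past 1.5-fold, the size used here to call a difference. Among all 10752 genes with at least 200 counts, 3.49% were called higher and 3.56% lower. The other 6 genes were within 1.5-fold. The log2 ratio was below 0 for 7 of the 9 genes and for 45.1% of all genes tested, with medians of -0.37 and 0.03. The probe kit's number of probes per gene is not in the files, so levels are compared between libraries, layers and classes for 1 gene at a time and not between genes.

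**Figure D1:**
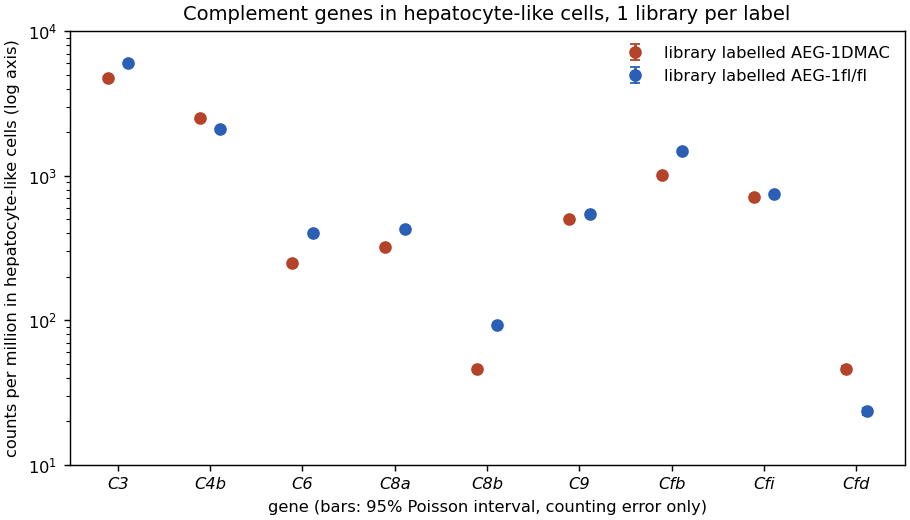
CPM (log axis) of the 9 complement genes in hepatocyte-like cells, 1 point per library, with 95% Poisson intervals that are mostly smaller than the points. C8b stood at 46.1 against 92.8 CPM and Cfd at 46.2 against 23.4, the widest gaps of the 9.

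The entry points differed in direction. C4b, whose product is cleaved early in the classical and lectin pathways, was at 2510.2 CPM (2498 to 2522) in the library labelled AEG-1DMAC and at 2112 CPM (2101 to 2123) in the library labelled AEG-1fl/fl, a log2 ratio of 0.25 (0.24 to 0.26). It was the only gene besides Cfd with a log2 ratio above 0. Its near copy C4a is not among the genes measured, and whether the C4b probes tell the copies apart is not stated. C3, the component all pathways cleave, was at 4714 and 6077 CPM, a log2 ratio of -0.37 (-0.37 to -0.36).

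Of the alternative pathway, Cfb (factor B, the protease subunit of its C3-cleaving enzyme) and Cfd (factor D, also called adipsin, the protease that cuts factor B) went opposite ways. Cfb was at 1006 CPM (998 to 1014) and 1483 CPM (1474 to 1493), a 1.47-fold difference that lay just inside 1.5-fold. It passed 1.5-fold under 3 of 6 alternative ways of computing it, where its log2 ratio reached -0.61. Cfd was at 46.2 CPM (2962 counts) and 23.4 CPM (1546 counts), a 1.98-fold difference. Cfd was sparse, however, and the size of its difference moved with the summary: averaged over cells in place of summed counts, its log2 ratio was 0.44, within 1.5-fold, against 0.98 from summed counts. Cfi (factor I) was at 716 and 744 CPM, a log2 ratio of -0.06 (-0.08 to -0.04).

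Of the terminal genes, C6 and C8b were past 1.5-fold lower in the library labelled AEG-1DMAC, and C8a and C9 were within 1.5-fold. C6, the first of these 4 to join the membrane attack complex, was at 249 CPM (245 to 253) and 402 CPM (397 to 407), a log2 ratio of -0.69 (-0.72 to -0.66). The beta chain gene C8b was at 46.1 CPM (44.4 to 47.8) and 92.8 CPM (90.5 to 95.1), a log2 ratio of -1.01 (-1.07 to -0.95). The alpha chain gene C8a, which makes part of the same protein and is its neighbour in the genome, was at 323 and 425 CPM, a log2 ratio of -0.40 (-0.42 to -0.37). C9, which forms the ring of the pore, was at 499.6 and 543 CPM, a log2 ratio of -0.12 (-0.14 to -0.10). The counting intervals of the 4 ratios do not overlap.

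Cell by cell the genes differed in how evenly they were spread. With every hepatocyte-like cell thinned to 5000 counts, the median cell held 21 and 27 counts of C3, with 10th to 90th percentiles of 13 to 34 and 15 to 43, and no cell lacked it. C8b was at 0 in 80.8% and 68.3% of cells and Cfd in 85.0% and 92.2%. For Cfd the tenth of cells with the most counts held 76.2% and, where fewer cells than that had a count, 100% of them, against 17.9% and 18.9% for C3. Thinned to 2000 counts so that all classes can be compared, 37.2% (34.4 to 40) and 48.3% (45.4 to 51.3) of hepatocyte-like cells had a C6 count, and 93.1% and 95.4% of them did without thinning. The corresponding shares for C8b were 9.04% (7.47 to 10.8) and 16.8% (14.6 to 19.1) thinned, and 62.3% and 77.1% unthinned. For C6 and C8b, then, the share of cells with a count went the same way as the summed level. Both come from the same counts, and for a sparse gene that share is largely set by its mean level. It is therefore not separate support for the library difference.

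Along the lobule the 9 genes fell into 3 patterns. Hepatocyte-like cells with at least 20 counts of Cyp2e1 (pericentral) and Cyp2f2 (periportal) were ordered by the Cyp2e1 share of those counts and cut into a periportal, a midlobular and a pericentral zone of 374, 374 and 373 cells in the library labelled AEG-1DMAC and 320 each in the other. Another 62 and 153 cells had too few of these counts. Past 1.5-fold in both libraries, C6 and Cfd were higher pericentrally, and C8a, C8b, C9 and Cfi higher periportally. C3, C4b and Cfb stayed within 1.5-fold. Among 9097 genes tested this way, 6.87% were called pericentral and 1.77% periportal. The order held for genes it did not use: Glul, made next to the central vein, was higher pericentrally (log2 ratios 3.99 and 3.92), and Hal, a periportal enzyme of histidine breakdown, was higher periportally (-3.67 and -4.30).

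**Figure D2:**
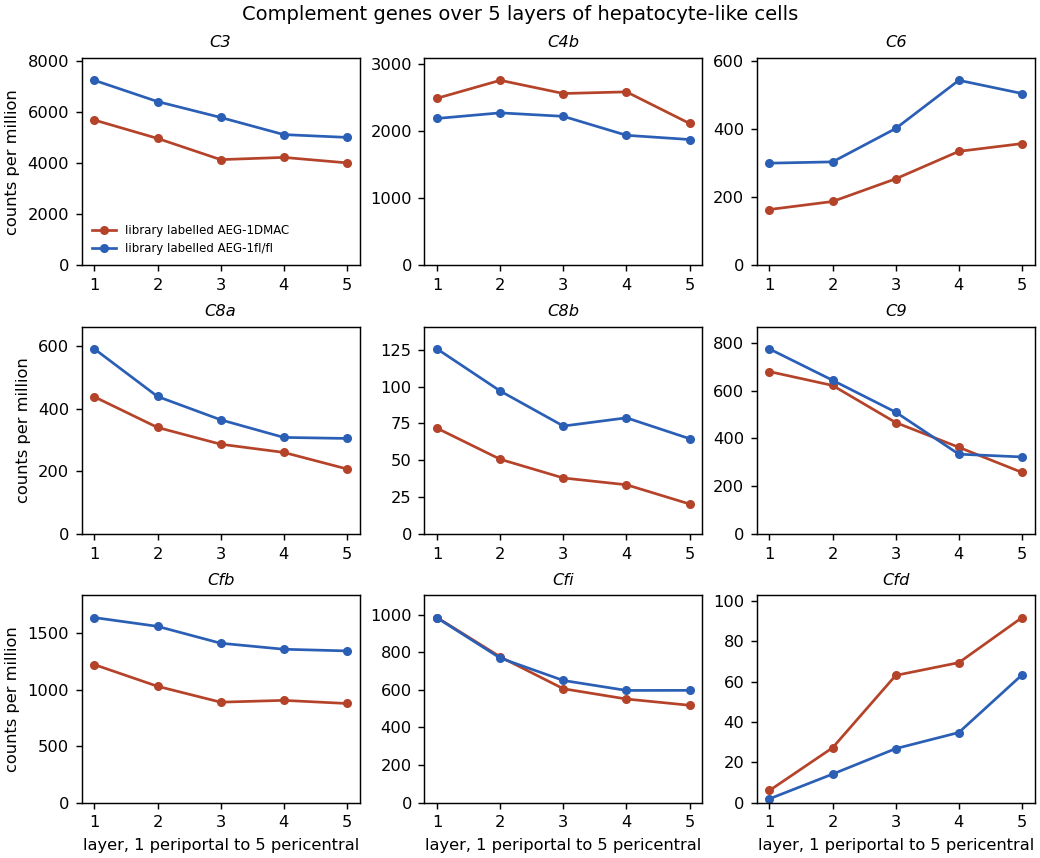
CPM of each gene (linear axis from 0) over 5 layers of hepatocyte-like cells, from layer 1 (periportal) to layer 5 (pericentral), 1 line per library. C9 went from 679.9 to 258 CPM in the library labelled AEG-1DMAC and from 775 to 323 in the other, while Cfd went from 6.07 to 91.7 and from 1.93 to 63.3.

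Cfd had the steepest gradient. Its periportal, midlobular and pericentral levels were 12.8, 62.4 and 78.0 CPM in the library labelled AEG-1DMAC and 4.33, 23.0 and 50.9 CPM in the library labelled AEG-1fl/fl. The pericentral over periportal log2 ratios were 2.61 (2.43 to 2.78) and 3.55 (3.27 to 3.85). Under the alternatives run they ranged from 1.67 to 3.92 and from 2.93 to 5.04. Both were lowest without the tenth of cells with the most counts. Adipocytes are the usual main source of Cfd, so adipocyte markers were counted in the same cells. Adipoq and Lep were at 0 counts in both libraries, and Retn, Plin1 and Acvr1c at 7, 6 and 2 counts in the library labelled AEG-1DMAC and at 1, 7 and 1 in the other, beside 2962 and 1546 counts of Cfd. Whether any of the Cfd counts came from adipocytes was not tested.

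C6 ran the same way with a shallower slope. It was at 173, 256 and 349 CPM in the periportal, midlobular and pericentral zone of the library labelled AEG-1DMAC and at 296, 427 and 522 CPM in the other. The log2 ratios were 1.01 (0.96 to 1.07) and 0.82 (0.77 to 0.86). In the library labelled AEG-1fl/fl the highest of the 5 layers was the fourth, at 545 CPM, next to 506 CPM in the fifth.

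The terminal genes C9, C8b and C8a ran against C6, their partner in the membrane attack complex. C9 was at 676, 463 and 296 CPM across the zones of the library labelled AEG-1DMAC and at 744, 502 and 316 CPM in the other, log2 ratios of -1.19 (-1.24 to -1.15) and -1.23 (-1.28 to -1.19). C8a had log2 ratios of -0.83 (-0.88 to -0.77) and -0.85 (-0.89 to -0.81), alike in both libraries. C8b had -1.33 (-1.48 to -1.19) and -0.74 (-0.84 to -0.65), and the intervals do not overlap. Without the tenth of cells with the most counts, C8b of the library labelled AEG-1fl/fl was at -0.52, within 1.5-fold.

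Cfi, the inhibitor, was also periportal, at 919.8, 615 and 536 CPM in the library labelled AEG-1DMAC and 931, 649.9 and 592 CPM in the other. Its log2 ratios of -0.78 (-0.81 to -0.75) and -0.65 (-0.69 to -0.62) were the closest to 1.5-fold of the graded genes. With the order set by other zone genes they were -0.55 and -0.57, both within 1.5-fold, and with cells thinned to 5000 counts the second was -0.51. C3 had log2 ratios of -0.41 and -0.51, Cfb -0.38 and -0.28 and C4b -0.16 and -0.23, all 3 on the periportal side and within 1.5-fold in both libraries. Depth differed along the order: the median cell held 40401 and 46805 counts in the periportal zone and 28470 and 36506 in the pericentral zone.

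The genes whose pattern over the 10 layers (5 in each library) was most like that of a graded complement gene were found among 2637 genes of at least 50 CPM. For C9 these were Hsd17b13 and Sfxn1 (Pearson r = 0.998 and 0.996 of log2 CPM), for C8a Mup3 and Cfhr2 (0.992 and 0.991), for C8b Serpina11 and Tars (0.991 and 0.973) and for Cfi Sdc1 and Serpina1a (0.995 and 0.994). For C6 they were Ginm1 and Slc2a2 (0.988 and 0.988). For Cfd they were Cyp2e1 and Mfn2 (0.995 and 0.994), but Cyp2e1 set the order of the cells. The 10 points share their cells and that order, so the r values describe likeness of shape.

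The point estimate of the difference between libraries had the same sign in each zone for all 9 genes, although the periportal interval of Cfi (-0.04 to 0.01) spanned 0. The zones are parts of the same cells whose summed counts gave the ratios above, so the shared sign is not separate support. The same count over all genes is not given, so it cannot be read as particular to these genes. C6 had library log2 ratios of -0.78, -0.74 and -0.58 from the periportal to the pericentral zone. C8b had -0.88 (-0.96 to -0.79), -1.004 (-1.13 to -0.88) and -1.47 (-1.62 to -1.32), so its gap was widest near the central vein, where its level was lowest. Cfd ran the other way, with 1.56 (1.25 to 1.88), 1.44 (1.27 to 1.60) and 0.62 (0.50 to 0.73). Cfb was past 1.5-fold in the midlobular zone alone, at -0.68 (-0.71 to -0.65). The remaining genes, C3, C4b, C8a, C9 and Cfi, ranged from -0.44 to 0.28 over the zones.

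**Figure D3:**
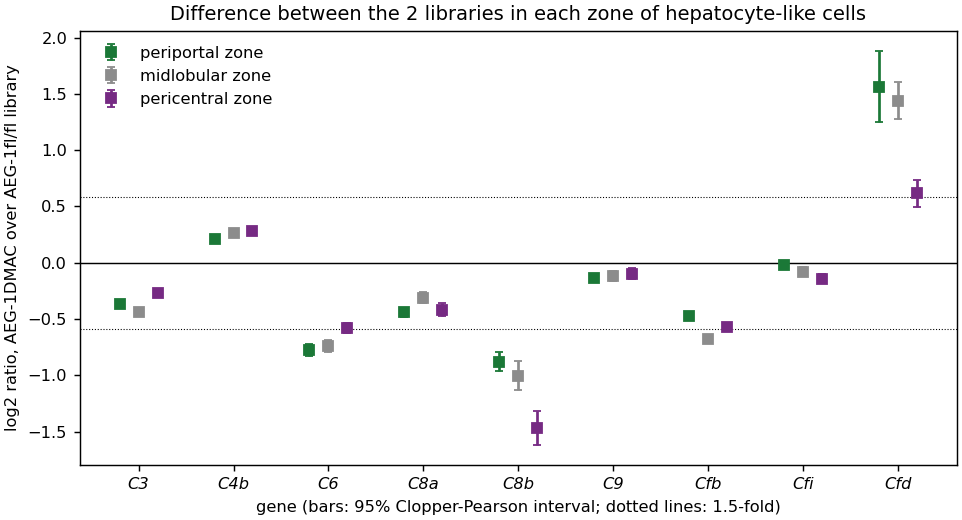
Log2 ratio of the library labelled AEG-1DMAC over the library labelled AEG-1fl/fl for each gene in the periportal, midlobular and pericentral zone of hepatocyte-like cells, with 95% Clopper-Pearson intervals and dotted lines at 1.5-fold. The 3 squares of a gene lie on the same side of 0, and those of C8b and Cfd are spread the widest.

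Outside hepatocytes every complement gene had counts, and so did the hepatocyte markers. The 15 hepatocyte markers together stood at 51.1% and 32.8% of their hepatocyte level in macrophage-like cells, 62.4% and 34.6% in T and NK cell-like, 64.7% and 53.4% in stellate cell-like, 66.0% and 56.5% in B cell-like, 47.6% and 56.5% in cholangiocyte-like and 53.0% and 35.8% in endothelial cell-like cells. Each complement gene was therefore set against that share: a ratio of 1 means that the gene stood at the same share of its hepatocyte level as the markers did. C3 gave 0.99 and 0.97 in macrophage-like cells and 0.987 and 0.997 in endothelial cell-like cells, although 94.8% and 92.1% of macrophage-like cells had a C3 count. C9, Cfi and C8a likewise stayed between 0.69 and 1.23 in every class.

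Over 1.5 times the markers in both libraries there was 1 of 47 pairs of a complement gene and a class: C6 in macrophage-like cells. Among all 24965 pairs of a gene and a class, 67.5% were over it, a background that includes genes made mainly by the other classes. C6 was at 415 CPM (393 to 437) in macrophage-like cells of the library labelled AEG-1DMAC and at 267 CPM (255 to 280) in the other, 3.26 and 2.03 times what the hepatocyte markers give. In the library labelled AEG-1DMAC that is above its level in hepatocyte-like cells. Thinned to 2000 counts, 40.9% (34.9 to 47.2) and 28.2% (24.6 to 31.9) of macrophage-like cells had a C6 count, against 10.3% (2.87 to 24.2) and 14.3% (7.61 to 23.6) of T and NK cell-like cells, in which C6 was at 0.53 and 0.59 times the markers. In stellate cell-like cells the shares were 35.6% (28.6 to 43.0) and 43.6% (37.9 to 49.5). There C6 was at 218 and 294 CPM, 1.36 and 1.37 times the markers. In the library labelled AEG-1fl/fl both the share and the CPM were above those of macrophage-like cells. Cells under 2000 counts were left out of the thinned shares. Those shares cover 259 and 614 macrophage-like cells, 39 and 84 T and NK cell-like cells and 180 and 298 stellate cell-like cells. The unthinned shares, over all cells of a class, were 60% and 46.7% of macrophage-like and 31.2% and 23.8% of T and NK cell-like cells. Of stellate cell-like cells they were 52.8% and 66.9%. The medians were 5788 and 5699 counts per macrophage-like cell, 3696.5 and 2871 per T and NK cell-like cell and 4613 and 5774 per stellate cell-like cell. Without the single cell with the most C6 counts the ratios in macrophage-like cells were 3.24 and 2.05.

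**Figure D4:**
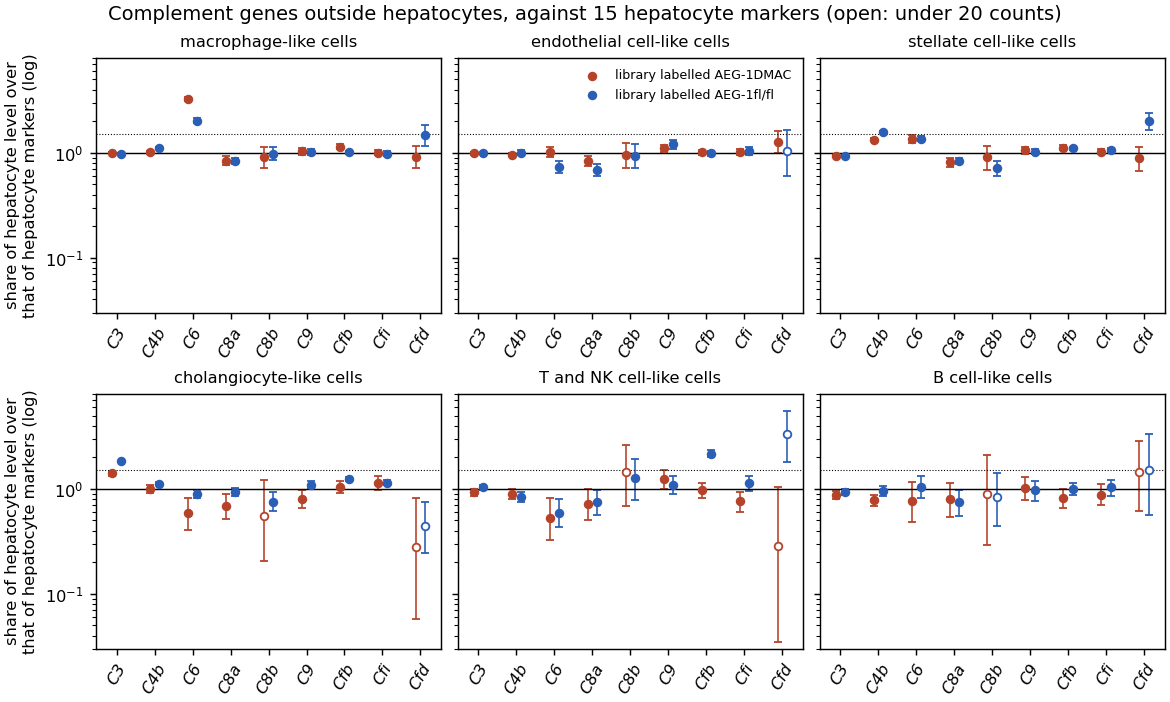
For each class outside hepatocytes, the share of a gene's hepatocyte level divided by the share of the 15 hepatocyte markers (log axis), 1 point per library, with 95% Poisson intervals of the gene's counts, open points under 20 counts, a line at 1 and a dotted line at 1.5. C6 in macrophage-like cells, at 3.26 and 2.03, is the only gene above the dotted line in both libraries with 20 or more counts in each.

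Within the macrophage-like cells C6 went with the resident, Kupffer cell markers. Cells with more counts of Clec4f, Cd5l, Marco and Timd4 (267 and 551 cells) had C6 at 439 CPM (416 to 463) and 321 CPM (306 to 337), 3.32 and 2.15 times the hepatocyte markers. Cells with more counts of Gpnmb, Trem2, Ms4a7 and Ccr2, markers of recruited and lipid-associated macrophages (36 and 171 cells), had 41.3 CPM (17.8 to 81.4; 8 counts) and 55.0 CPM (43.1 to 69.3; 72 counts), 0.85 times the markers in both. The split into these groups was made after the C6 result was seen. The hepatocyte markers were also higher in the first group, at 53.1% and 37.2% of their hepatocyte level against 19.6% and 16.1%. The library difference of C6 in macrophage-like cells, 0.63 (0.53 to 0.74), had the opposite sign to that in hepatocyte-like cells, and the resident group held 267 of 305 cells against 551 of 732. The part of that mix in the difference was not tested. In the same 2 groups, C3, C4b and Cfb were at 0.96 to 1.13 times the markers in the resident group and at 0.89 to 2.04 times in the other.

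**Figure D5:**
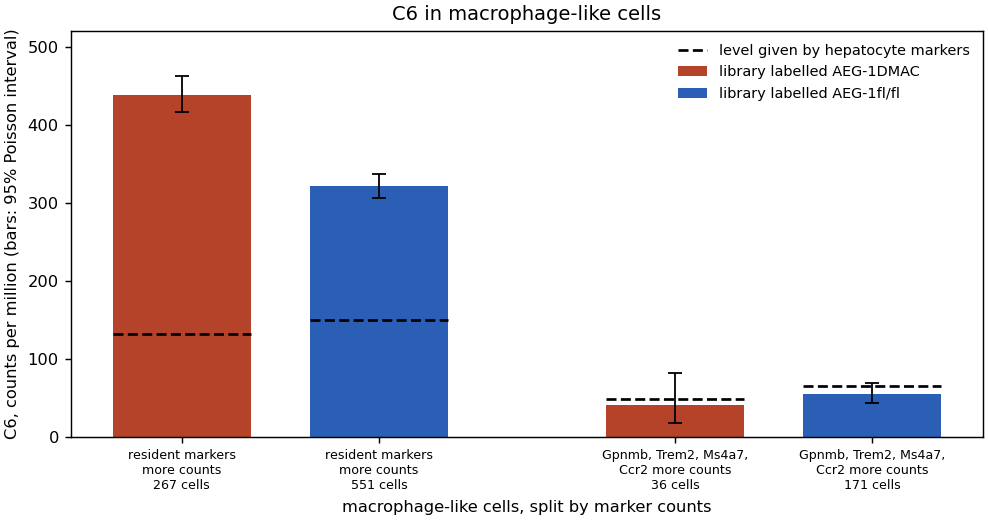
C6 (CPM, bars from 0, 95% Poisson intervals) in macrophage-like cells with more counts of resident markers and in those with more counts of Gpnmb, Trem2, Ms4a7 and Ccr2, by library, with the level the hepatocyte markers give as a dashed line. C6 is at 439 and 321 CPM in the first group, well over the dashed line, and at 41.3 and 55.0 CPM in the second, slightly under it.

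Other pairs came near or passed 1.5 times the markers in 1 library. C4b in stellate cell-like cells was at 2172 and 1771 CPM, 1.34 and 1.57 times the markers, and C6 in the same cells at 1.36 and 1.37 times. With a stricter gate for the classes, both passed 1.5 times in both libraries. C3 in cholangiocyte-like cells was at 3160.1 and 6288 CPM, 1.41 and 1.83 times the markers, and without the cell with the most C3 counts at 1.503 and 1.79, over 1.5 in both. Cfb in T and NK cell-like cells of the library labelled AEG-1fl/fl was at 1113 CPM and 2.17 times the markers, but 1 cell held 59.9% of those counts, and without that cell the ratio was 0.88. Cfd in stellate cell-like cells was at 26.6 CPM (58 counts) and 25.0 CPM (111 counts), 0.89 and 1.998 times the markers. The adipocyte markers together were at 1.83 and 3.60 CPM there, against 0.23 and 0.14 CPM in hepatocyte-like cells. Their part in the Cfd values was not tested.

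Among hepatocyte-like cells, the genes also varied with 2 expression programmes. Cells thinned to 5000 counts were ranked by the summed counts of 16 acute-phase genes and cut into 5 groups of equal size. Most of these genes encode plasma proteins that hepatocytes make in inflammation, but the list also holds the signalling genes Socs3 and Stat3. From the lowest to the highest group, Cfi went from 307 to 939 CPM in the library labelled AEG-1DMAC and from 418 to 883 CPM in the other. Cfb went from 532 to 1285 CPM and from 915 to 2095.5 CPM, and C3 from 3308 to 6130 CPM and from 4006 to 7695 CPM. C6 went the other way, from 429 to 178 CPM and from 686 to 341 CPM, log2 ratios of -1.27 (-1.51 to -1.03) and -1.01 (-1.19 to -0.83). C4b moved little and not in 1 direction, with log2 ratios of -0.20 and 0.22.

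Ranked by 11 genes of fat storage and lipid droplets, the order was turned around for C6, Cfi, C9, C3 and Cfb. From the lowest to the highest of 5 groups, C6 went from 159 to 421 CPM and from 259 to 581 CPM, log2 ratios of 1.41 (1.16 to 1.66) and 1.16 (0.96 to 1.37). Cfi went from 981 to 389 CPM and from 966 to 470.3 CPM, and C9 from 629 to 326 CPM and from 726 to 349.6 CPM. Both lists thus put C6 opposite Cfi, C9, C3 and Cfb, as the lobule does for C6 against Cfi and C9. Cfd, pericentral like C6, did not follow it in both libraries. Its log2 ratios were 0.58 (-0.09 to 1.26) and -1.55 (-2.50 to -0.67) by the acute-phase list. By the fat storage list they were 0.84 (0.07 to 1.64) and 1.74 (0.78 to 2.81). The groups were cut after the data were seen and were not matched for layer, and a list that takes a larger share of a cell's counts leaves less for other genes, so these are descriptions of the same cells. Between pairs of the 9 genes across thinned cells the highest Spearman correlations were those of C3 with Cfb (rho = 0.37 and 0.40 over 1183 and 1113 cells that share their library).

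The other complement genes, from a list of 43 of which 39 were measured, give the setting. In hepatocyte-like cells 36 of them had at least 200 counts, with a median library log2 ratio of -0.08. Of these, 4 were past 1.5-fold higher and 4 lower in the library labelled AEG-1DMAC, beside 3.49% and 3.56% of all 10752 genes tested. Of the recognition proteins, Mbl2, a mannose-binding lectin, was lower (305 and 486 CPM, log2 ratio -0.67), and Fcna, a ficolin (20.4 and 8.88 CPM), and Colec10, a collectin (24.7 and 16.4 CPM), were higher. Both lay below their levels elsewhere, 373 and 151 CPM of Fcna in macrophage-like and 472 and 324 CPM of Colec10 in stellate cell-like cells. Cd55, which dismantles the C3-cleaving enzymes on cell surfaces, was higher (6.57 and 3.16 CPM), also below its levels in the other classes. The nearest were 16.3 and 5.02 CPM in cholangiocyte-like cells, from 8 and 12 counts. Of the receptors, C5ar2 was higher (3.84 and 2.53 CPM), and C5ar1 (1.98 and 4.22 CPM), Itgam (1.28 and 2.63) and Itgax (1.75 and 5.27) were lower, all below their macrophage-like levels of 45.2 CPM or more.

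The remaining genes of the membrane attack complex, Hc, C8g and C7, were not past 1.5-fold or had too few counts. Hc, which encodes C5, was at 436 and 441 CPM and C8g, the third chain of C8, at 436 and 473 CPM in hepatocyte-like cells, log2 ratios of -0.02 and -0.12, next to -0.12 for C9, -0.40 for C8a and -1.01 for C8b. C7, which joins between C6 and C8, had 14 and 7 counts in all hepatocyte-like cells, but 74 and 183 counts in stellate cell-like cells, where it was at 33.9 and 41.2 CPM. Of the 39 measured genes outside the 9, 2 were graded past 1.5-fold in both libraries: Vtn (vitronectin, an inhibitor of the complex) was higher periportally, with log2 ratios of -0.69 and -0.72, and Susd4, a membrane regulator of complement, pericentrally, with 3.33 and 3.66. Among all 9097 genes tested this way 6.87% were called pericentral and 1.77% periportal, so the 2 cannot be read as particular to complement.

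Several of the other genes stood far above the hepatocyte markers in 1 or more classes. Cfp (properdin, which steadies the alternative pathway enzyme) was at 995 and 972 CPM in macrophage-like cells, 48.6 and 108 times the markers. Endothelial cell-like cells had it at 7.42 and 16.7 times and stellate cell-like cells at 7.11 and 13.2 times. The remaining classes had it at 2.01 to 17.9 times. Colec11 was at 1269 and 1367 CPM in stellate cell-like cells, 48.9 and 89.4 times. Endothelial cell-like cells had it at 9.85 and 13.2 times and macrophage-like cells at 8.22 and 9.96 times. The markers are hepatocyte genes, so the part of RNA from macrophages or stellate cells in the lower values was not tested. Clu (clusterin, an inhibitor of the membrane attack complex) was at 19026 and 17954 CPM in cholangiocyte-like cells, 14.2 and 8.53 times. Cd55 was at 269 and 379 CPM in endothelial cell-like and at 291 and 256 CPM in B cell-like cells. The receptor C3ar1, which binds a fragment of C3, was at 132 and 323 CPM in macrophage-like cells.

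Other gene lists were counted in the same hepatocyte-like cells. Of all 10752 genes tested there, 3.49% were past 1.5-fold higher and 3.56% lower in the library labelled AEG-1DMAC. Of the 16 acute-phase genes, 5 were past 1.5-fold lower and 2 higher in the library labelled AEG-1DMAC, with a median log2 ratio of -0.28 and a range of -1.41 to 1.28. The 5 lower were Saa1, Saa2, Saa3, Lcn2 and Apcs, and the 2 higher were Saa4 and the signalling gene Socs3. The 4 of the 16 with the most counts were all within 1.5-fold. They were Hp (8694 and 9993 CPM), Orm1 (1973 and 2040 CPM), Itih4 (1497 and 1699.8 CPM) and Cp (1104 and 1421 CPM). Of 11 fat storage genes, 1 was lower and none was higher. Of 9 genes with higher expression in male liver and enough counts, 5 were lower and 1 was higher, with a median of -0.70, and Mup20 was at 3093 and 5920 CPM. Of 5 such genes with higher expression in female liver, 3 were higher and 1 was lower, with a median of 0.59 and a range of -2.76 to 4.99. All 4 Y-linked genes had counts in both libraries, at log2 ratios from -0.27 to 0.19, which the Y chromosome of a male animal gives. The part of these differences in the complement values was not tested.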

How the data were processed

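Fixed liver tissue was profiled with a probe-based 10x Genomics kit. The authors made the deposited counts (unique molecules per gene and cell, not normalized) with Cell Ranger 7.1.0 against mm10, and the submitters' processing notes also name Seurat. Here, cells under 100 detected genes or over 10% mitochondrial counts were left out (10 and 27 cells). A class needed 3 detected markers of its panel and a minimum of marker counts per 10000, from 5 (cholangiocyte) to 60 (macrophage), or, for hepatocytes, 400 and at least 5000 counts with no other panel near its limit. These limits were set after the data were seen, no doublet caller was run, and 433 and 552 cells stayed ungated. Classes under 20 cells in a library (neutrophil, dendritic and mesothelial panels) were left out. Each class had 1 to 5 markers of its panel among its 10 leading genes. Counts were summed per class and library and scaled to CPM. Intervals are exact Poisson for CPM and Clopper-Pearson for ratios and shares. The ratio was tried on simulated counts with Poisson error alone, the error its interval assumes. That trial says nothing of the spread between cells or animals. The members and lists were chosen with earlier results of these data known. Named besides the 9 were pathway genes past 1.5-fold in hepatocyte-like cells with at least 200 counts, or above the hepatocyte markers in a class (examples given), the 2 genes most like each graded gene, and up to 4 genes of a context list with the most counts. The acute-phase genes past 1.5-fold were named without values. Other scalings, gates, filters, zone orders and thinning were tried. Software was pandas 2.3.3, SciPy 1.17.1 and NumPy 2.4.6 under Python 3.11.15.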

Additional observations from a re-analysis of the deposited data

Results flagged for a closer look

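The difference between libraries had opposite signs in hepatocyte-like cells and in another class for 16 pairs of a complement gene and a class, with counting intervals on either side of 0. The same count was not made over all genes, so the 16 pairs cannot be read as particular to complement genes. With 1 library per label the contrast between classes was not tested. In macrophage-like cells the log2 ratio of the library labelled AEG-1DMAC over the library labelled AEG-1fl/fl was 0.30 for C3, 0.63 for C6, 0.25 for C8a, 0.53 for C9, 0.26 for Cfb and 0.62 for Cfi, where hepatocyte-like cells had negative values. In endothelial cell-like cells it was 0.18 for C3, 0.36 for C6, 0.47 for C8a, 0.33 for C9 and 0.49 for Cfi. Stellate cell-like cells had 0.19 for C9 and 0.18 for Cfi, and T and NK cell-like ones 0.32 for C3 and 0.90 for C9. C4b was lower in cholangiocyte-like cells (-0.16) and higher in hepatocyte-like cells. The hepatocyte markers moved with these values: their median log2 ratio was 0.997 in T and NK cell-like, 0.70 in macrophage-like, 0.62 in endothelial cell-like, 0.35 in stellate cell-like and -0.40 in cholangiocyte-like cells, and 0.05 in hepatocyte-like cells. Their part in the opposite signs was not tested.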

How the results depend on the processing

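No paired analysis was possible because each label has 1 library. With a fold of 2 in place of 1.5, 1 of the 9 genes, C8b, was past the limit between libraries in hepatocyte-like cells, against 3. Scaled by the median of ratios, or without the tenth of cells with the most counts, 4 were past 1.5-fold (Cfb joined). Between zones, 5 or 6 genes were past 1.5-fold under all 5 alternatives run. Outside hepatocytes, the number of pairs over the hepatocyte markers was 3 with a stricter gate, 13 when the gene with the lowest share replaced the summed markers, 0 at a fold of 3, and 2 without the cell with the most counts (C3 in cholangiocyte-like cells joined), an alternative chosen after seeing the data. C6 in macrophage-like cells was among the 3, the 13 and the 2. All single-gene log2 ratios between libraries and between zones kept their sign under every alternative run. Of these, 94 values moved beyond the counting interval and 50 did not. The widest range between libraries was that of Cfd, 0.44 to 1.21. With 1 library per label, the spread between animals is unknown, and depth limits C8b and Cfd outside hepatocytes, where some classes held under 20 counts.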

Other observations

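Cells of the mesothelial panel, the lining of the liver surface, were too few for a class (1 and 4 cells), and C3 was high in those of the library labelled AEG-1fl/fl. The 4 cells in the library labelled AEG-1fl/fl, each with a count, held 654 C3 counts among 28484, or 22960.3 CPM (21234 to 24789), against 6077 CPM in hepatocyte-like cells of that library. The single cell in the library labelled AEG-1DMAC held 344 C3 counts among 75712, or 4544 CPM (4076 to 5050), against 4714 CPM. These cells were found by Msln, Upk3b, Upk1b, Wt1 and Muc16 and were looked at after the data were seen.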
